A study of Drosophila melanogaster with 2 samples.

Results

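Binding of the zinc finger protein Sry-delta on the X chromosome of Drosophila melanogaster is described here from chromatin immunoprecipitation followed by sequencing (ChIP-seq). The X held 1267 of the 6318 peaks (20.1%) that the authors' irreproducible discovery rate filter kept as the optimal set in genome build dm6, and every one of them is a member by its chromosome alone. Peaks that share a called region with a neighbour are listed with a summit each, so the 1267 X summits lay in 1094 regions. For comparison, 2L held 1097 peaks, 3L held 1215 and 3R held 1454, or 3766 on these 3 arms together. Both libraries were immunoprecipitated with an anti-GFP antibody from whole Sry-delta-GFP embryos, 0-24 hours old and of mixed sex. The transgenic line stably carries Sry-delta with GFP at its C-terminus, and the antibody reports the tagged protein only. They form 1 group, biological replicates 3 and 4, with no other genotype or treatment. Whole embryos of this wide age range mix all tissues and stages, so a peak shared by all cells cannot be told apart from a strong peak in some of them.

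The X differs from the autosomes in how it is regulated. Males carry a single X and females a pair, and in males the MSL complex, which contains the acetyltransferase MOF and the noncoding RNAs roX1 and roX2, spreads along the X from GA-rich entry sites and raises its transcription. In females the splicing regulator Sxl keeps that complex from forming. Sry-delta has a ZAD dimerisation domain and C2H2 zinc fingers. Embryos of both sexes were pooled, so the X was present in fewer copies than the autosomes, and an effect of copy number on peak signal or peak number cannot be told apart from one of binding.

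The sequences under the strongest X peaks show the letters that recur there. Each line gives 101 bases centred on a summit, on the plus strand of Release 6 (dm6), for X peaks among the 15 of highest signal. Capitals mark CGATA or its reverse complement TATCG, and the Motif 1 core GGTCACAC on either strand. CGATA is the core of the sites described for the boundary protein BEAF-32 and is held by the DNA replication-related element (DRE, TATCGATA, a palindrome), the site of the transcription factor DREF. Motif 1 is a core promoter element bound by M1BP.
CG2924 (chrX:2270759-2270859): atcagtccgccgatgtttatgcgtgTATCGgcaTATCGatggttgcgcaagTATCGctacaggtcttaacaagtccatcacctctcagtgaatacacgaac
Hers (chrX:19866042-19866142): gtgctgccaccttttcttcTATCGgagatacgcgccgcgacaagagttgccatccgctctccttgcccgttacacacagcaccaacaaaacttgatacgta
wapl (chrX:2158995-2159095): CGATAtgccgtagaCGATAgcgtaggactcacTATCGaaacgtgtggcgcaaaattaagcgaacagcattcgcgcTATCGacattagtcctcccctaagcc
Atg8a (chrX:10768387-10768487): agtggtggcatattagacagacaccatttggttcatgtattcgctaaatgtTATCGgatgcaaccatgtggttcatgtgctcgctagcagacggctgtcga
htk (chrX:18843545-18843645): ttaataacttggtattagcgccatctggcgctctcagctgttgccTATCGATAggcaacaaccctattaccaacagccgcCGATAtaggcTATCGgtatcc
CrebB (chrX:18370869-18370969): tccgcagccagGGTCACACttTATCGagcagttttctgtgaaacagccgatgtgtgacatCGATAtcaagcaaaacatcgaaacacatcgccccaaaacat
mys (chrX:8061535-8061635): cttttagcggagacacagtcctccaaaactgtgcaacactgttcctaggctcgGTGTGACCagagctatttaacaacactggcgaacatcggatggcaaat
Among the 15 X peaks of highest signal, 13 had a CGATA core in this window and 2 had none, mys and Pp2C1. The mys window holds a Motif 1 core. The htk window holds a full DRE with further CGATA cores beside it. Over all X peaks, 44.1% (559) had a CGATA core in the 101 bp window, against 39.9% of peaks on 2L, 3L and 3R. Flanking windows centred 300 bp away held it in 14.7% of cases on X and 13.2% on the 3 arms. Among all 101 bp windows of the sequence, 11.8% on X and 11.0% on the arms held it. The CGATA core was chosen after sequences had been seen, so these shares are a description. Signal had a median of 419 at X peaks with the core and 184 at those without. On 2L, 3L and 3R together the medians were much alike, 451 with the core and 183 without. The core was in 53.1% of X promoter peaks and 19.5% of the other X peaks. At promoter peaks the medians were 475 with the core and 215 without. At the other X peaks they were close, at 153 with the core and 150 without.

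The strongest X peak lay 48 bp upstream of CG2924, at X:2270277-2271288. It ranked 8 of all 6318 optimal peaks, with an authors' signal value of 5705, and had 2673 in replicate 3 and 3067 in replicate 4. Hers, which encodes a repressor of histone gene transcription, followed at 4106, with 1847 in replicate 3 and 2275 in replicate 4. The third peak, at 4095, lay at CG33932 and within 500 bp of starts of CG18809, COX6B, which encodes a cytochrome c oxidase subunit, and Rpp20, which encodes a subunit of RNase P. Its signals were 1754 in replicate 3 and 2361 in replicate 4. These 3 peaks had their summits outside coding genes, 45 to 54 bp upstream of the nearest start. Replicate 4 gave the higher value at each of them.

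The next peaks lay at genes of signalling, the cytoskeleton, chromatin and protein turnover. Socs16D, a suppressor of cytokine signalling, had 3987. The start shared by pod1, a coronin of the growth cone, and C3G, an exchange factor for Rap1, had 3867. wapl, which releases cohesin from chromosomes, had 3767, with 1745 in replicate 3 and 2050 in replicate 4. SkpA, a subunit of SCF ubiquitin ligases, shared its peak of 3742 with Hmt4-20, a methyltransferase of histone H4 lysine 20. mbt, a PAK kinase, had 3575 and the only summit of these 15 in a 5′ UTR. tko, a protein of the mitochondrial small ribosomal subunit, had 3457, and Atg8a, an autophagy ubiquitin-like protein, had 3339 together with BTBD9. CG4119 and the mitochondrial sirtuin Sirt4 shared 3321, htk had 3260 alone, mys (a beta integrin) and fs(1)h (a BET bromodomain protein) shared 3208, and CrebB (a CREB transcription factor) had 3143. Of the 323 X peaks in the top 25% by signal, 303 had a summit within 500 bp of a coding start. Among the 15 strongest, 14 did. The exception was Pp2C1, a protein phosphatase, with a signal of 3247 at an intronic summit 2173 bp from the nearest start.

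X peaks were denser than peaks on the compared arms. The X had 53.8 optimal peaks per Mb, against 46.7 on 2L, 43.2 on 3L and 45.3 on 3R. The ratio of X to the 3 arms pooled was 1.20 (95% interval 1.12 to 1.28, two-sided exact binomial test, p = 5.5e-08). Coding genes are sparser on X, at 93.3 per Mb, than on 2L (113 per Mb), 3L (97.4) and 3R (107). Per 100 coding genes the X had 57.7 peaks, 2L had 41.3, 3L had 44.4 and 3R had 42.5, a ratio of 1.35 (1.27 to 1.44, p = 1.7e-19 in the same exact test). Counted as regions rather than summits, the ratio per Mb was 1.19 (1.11 to 1.27). The arms differ in how much gene-poor sequence near the centromere their assembly holds. In 1 Mb bins with at least 20 coding genes the X had 54.8 peaks per Mb, against 47.7 on 2L, 52.1 on 3L and 51.8 on 3R, and the ratio was 1.08 (1.01 to 1.15). Peaks cluster along an arm, so these intervals, which treat each peak as separate, cover counting error only. The X also had more peaks per Mb than any of the 3 arms in each replicate's own top 6318 peaks, with 54.0 in replicate 3 and 53.9 in replicate 4, against at most 46.9 on an arm in either list.

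**Figure D1:**
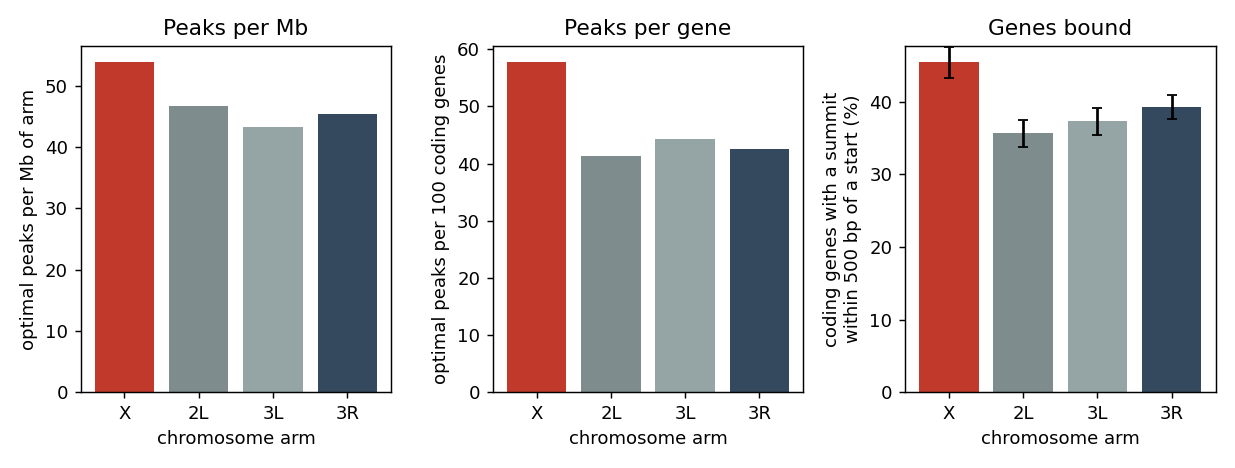
Peaks per Mb (left), peaks per 100 coding genes (centre) and the percent of coding genes with a summit within 500 bp of a start (right, bars with exact 95% intervals) for X, 2L, 3L and 3R. The X bar is the tallest in each panel, at 53.8, 57.7 and 45.4%.

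More coding genes were bound on X. A gene was counted as bound when an optimal summit lay within 500 bp of any of its annotated start sites. On X this held for 997 of 2196 coding genes (45.4%, exact 95% interval 43.3 to 47.5). On 2L it held for 35.6%, on 3L for 37.3% and on 3R for 39.2%. Over all 6 arms, 39.0% of coding genes were bound. The X exceeded the 3 arms pooled by 7.86 percentage points (95% Newcombe interval 5.55 to 10.2). With each replicate's own top 6318 peaks, 45.2% of X coding genes were bound in replicate 3 and 44.2% in replicate 4, while the arms gave 34.8% to 39.0%.

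The shares bound were also compared within classes of gene length. Coding genes on X had a median length of 2521 bp, against 1986 bp on 2L, 2130 bp on 3L and 2124 bp on 3R. More than a single start position was annotated for 31.1% of X coding genes and for 24.8% on the 3 arms. Among genes of 5 kb or longer, 52.1% were bound on X and 44.5% on the arms, a difference of 7.55 points (3.15 to 11.9). Among genes of 2 kb to under 5 kb the shares were 57.1% on X and 47.0% on the arms, a difference of 10.1 points (5.87 to 14.3). Among genes under 2 kb they were 31.6% on X and 28.7% on the arms, and the interval of that difference included 0 (−0.33 to 6.37). Genes with a single annotated start position were bound in 38.8% of cases on X and 32.8% on the arms, a difference of 6.00 points (3.32 to 8.72). Whether the X exceeds the arms by different amounts in the length classes was not tested.

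**Figure D2:**
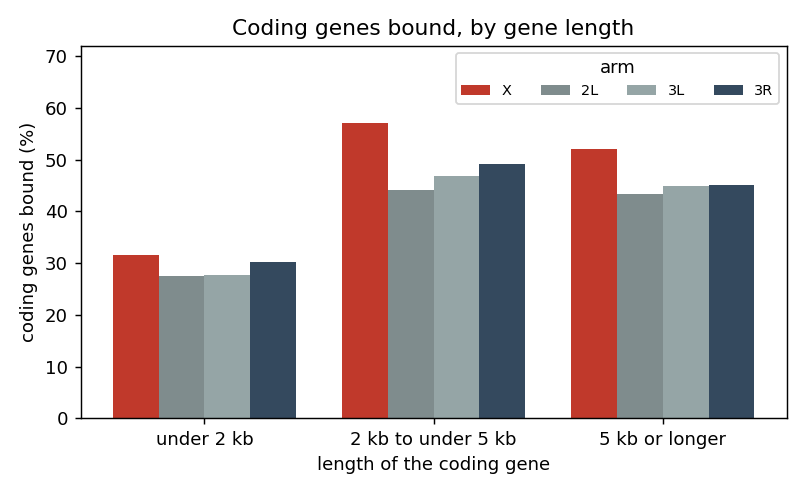
Percent of coding genes bound on X, 2L, 3L and 3R in 3 classes of gene length. X is highest in each class, with 31.6% under 2 kb, 57.1% from 2 kb to under 5 kb and 52.1% at 5 kb or longer.

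Summits on X sat mostly at promoters, as elsewhere. The summit lay within 500 bp of a coding start for 929 of the 1267 X peaks (73.3%), against 75.0% on 2L, 73.8% on 3L, 77.6% on 3R and 75.7% over all optimal peaks. The difference from the 3 arms pooled was −2.33 points and its interval included 0 (−5.17 to 0.42). In promoter peaks the median distance to the start was 61 bp on X and 55 bp on the arms, and the summit was upstream of the start in 80.2% on X and 79.3% on the arms. Of the X promoter peaks, 573 lay at a single coding gene, 347 at a pair and 9 at 3 or more. Conversely, 265 of the 997 bound X genes had at least 2 summits. CG44774 had 5, and Pfrx (6-phosphofructo-2-kinase), Ptpmeg2 (a tyrosine phosphatase), prage and sov had 4 each.

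Location differed on X in other respects. Divergent promoters, with a minus-strand start and a plus-strand start of another gene to its right both within 500 bp of the summit, made up 36.3% of X promoter peaks and 41.4% of those on the arms, a difference of −5.11 points. By arm the shares were 39.7% on 2L, 39.7% on 3L and 43.9% on 3R. Its interval excluded 0 at the level adjusted for the 5 location comparisons made (−9.73 to −0.34). Summits in introns made up 29.0% on X and 24.7% on the arms, 4.30 points apart (adjusted interval 0.63 to 8.12). Summits outside coding genes made up 50.1% on X and 55.1% on the arms, a difference of −5.01 points (adjusted interval −9.17 to −0.83). By arm, introns held 24.98% of peaks on 2L, 24.9% on 3L and 24.3% on 3R. The divergent, intron and outside-gene shares were not recomputed under the alternative settings. They were not set against the introns and gene pairs annotated on each arm, so the part of gene length and spacing was not tested.

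X peaks away from coding starts had low signal, as on the arms. The 338 such peaks comprised 224 in introns, 80 outside coding genes and 34 in coding exons or UTRs. Their signal had a median of 151, against 320 at the X promoter peaks. On the 3 arms pooled the medians were 153 away from coding starts and 300 at promoters. Only 20 of the 338 (5.92%) were in the top 25% of all optimal peaks, against 3.71% of such peaks on the arms, and the interval of that difference included 0 (−0.29 to 5.43). The 48 summits over 10 kb from a coding start had a median of 132. A start of a noncoding gene lay within 500 bp of 26 of the 338. After Pp2C1, the strongest were at Stt3A, a catalytic subunit of oligosaccharyltransferase (1976, 601 bp from the start), near CG15468 (1347, 4998 bp), at ph-p, a Polycomb protein (1272, 511 bp), and near CG4004 (1043, 5088 bp). The values at ph-p were 407 in replicate 3 and 871 in replicate 4, farther apart than those at Stt3A, with 945 in replicate 3 and 1036 in replicate 4.

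The signal of X peaks was spread much as on the arms, apart from its upper end. The median was 246 on X, 233 on 2L, 225 on 3L and 247 on 3R. The top 25% of all optimal peaks held 25.5% of X peaks and 24.7% of those on the arms, a difference of 0.75 points whose interval included 0 (−1.97 to 3.56). Among promoter peaks the medians were 320 on X, 298 on 2L, 281 on 3L and 326 on 3R. The top 10% held 8.45% of X peaks, against 10.2% on 2L, 8.64% on 3L and 12.2% on 3R, a difference from the pooled arms of −2.02 points (−3.75 to −0.11). At this threshold the value on 3L is close to that on X. Among only the 3159 optimal peaks of highest signal, the top 25% held 21.9% of the peaks on X, against 25.7% on 2L, 25.3% on 3L and 27.9% on 3R, a difference from the pooled arms of −4.53 points (−8.18 to −0.66). These are 2 of several alternatives tried, and 3R alone holds 33 of the 100 highest peaks, against 17 on X, 12 on 2L and 17 on 3L.

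**Figure D3:**
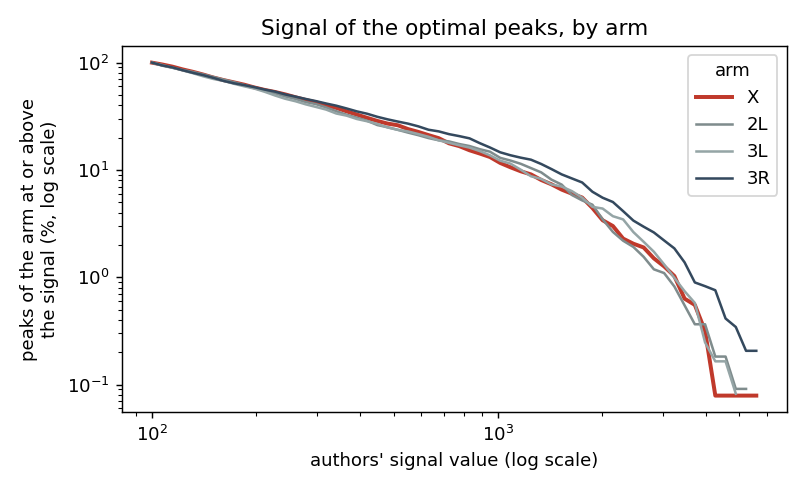
Percent of each arm's optimal peaks (vertical axis, log scale) at or above a given signal value of the authors (horizontal axis, log scale) for X, 2L, 3L and 3R. The curves run together at low signal, and at high signal the 3R curve lies above X, 2L and 3L.

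The X peaks were found in both libraries. Replicate 3 had an overlapping peak for 1265 of the 1267, and replicate 4 for all 1267. Among each replicate's own top 6318, both held 81.1% of X peaks. The median signal at X peaks was 99.6 in replicate 3 and 147 in replicate 4. The median log2 ratio of replicate 4 over replicate 3 was 0.45 on X (SD 0.62 across peaks), against 0.51 on 2L, 0.51 on 3L and 0.49 on 3R. It was 0.37 at X promoter peaks and 0.91 at the other X peaks. Across the 323 X peaks in the top 25% by signal its SD was 0.31, against 0.68 across the other 944. Spearman's rho across the X peaks was 0.856. The optimal set was chosen for ranks that repeat between these lists, so this is no independent measure of reproducibility.

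**Figure D4:**
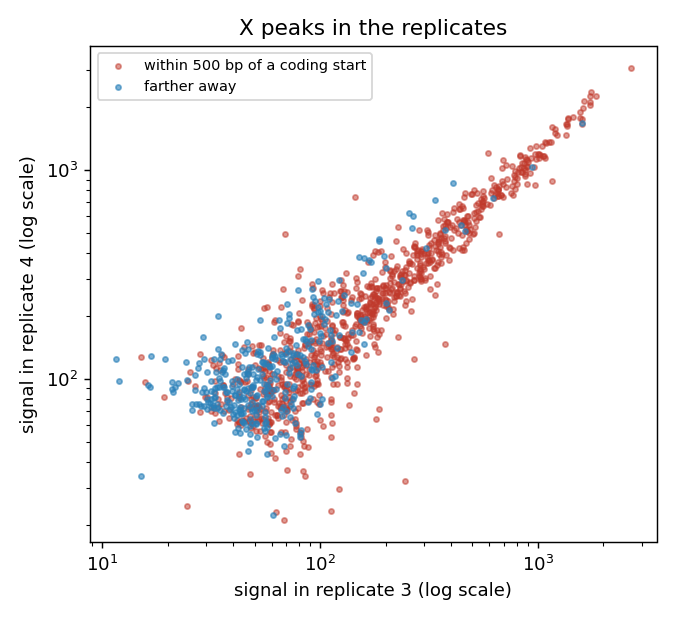
Signal of each X peak in replicate 3 (horizontal axis, log scale) and in replicate 4 (vertical axis, log scale), with promoter peaks and peaks farther than 500 bp from a coding start in separate colours. Log2 ratios between the replicates had an SD of 0.31 across the X peaks in the top 25% by signal and 0.68 across the rest, and the more distant peaks lie mostly at the low end, with medians of 55.8 in replicate 3 and 101 in replicate 4.

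Peaks were uneven along the X. Over the 23 full 1 Mb bins the number of summits ran from 7 to 84 with a median of 56, and the share of coding genes bound from 18.2% to 59.4%. The densest 200 kb, X:6670001-6870000 from CG3198 to CG14434, held 38 summits and 31 coding genes, of which 23 were bound, with the pod1 peak as its strongest. The stretch X:1770001-1970000, from prage to the nuclear receptor gene Hr4, held 35 summits and had 28 of 31 coding genes bound. X:2130001-2330000, from ph-p to CG2854, held 33 summits, including that of CG2924. The fourth bin, 3 to 4 Mb, which includes N, dnc and roX1, is described because of its values. It had 60 summits for 55 coding genes, or 109 per 100 genes, only 38.3% of its summits were within 500 bp of a coding start, and its median signal of 143 was the lowest of the bins. The longest stretch with no summit, X:21631673-22443731, spans 812 kb with coding genes from CG40813 to CG41562 and holds 21 coding genes, none of them bound. The next, 333 kb from mud to CG12540, starts at X:14247621. The last 2 Mb held 18 summits.

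Ribosomal protein genes on X were bound almost throughout. Against the 45.4% of all X coding genes, all 15 X genes for cytosolic ribosomal proteins were bound, with signals from 167 to 2483 and a median of 607. RpL36 had 2483, in a peak shared with Mybbp1A, RpL37-1 had 2189, RpS10b 1934 and RpS19a 1812. The RpS19a value is from a summit 425 bp from its start and 55 bp from that of Rok. A summit 215 bp from the RpS19a start had 453. The RpS14a summit, with 589, lay 291 bp from its start and 100 bp from that of Dhdds. On the 3 arms 46 of 54 were bound. RpS14a and RpS14b are near-identical neighbours, so reads at these genes may not be assigned to the right copy. Of the mitochondrial ribosomal protein genes with an mRp symbol, 10 of 11 on X were bound, among which the highest signals were those of mRpL33 (1150), mRpL16 (666), mRpS30 (439) and mRpL3 (400), each sharing its peak with another gene. tko, described above, encodes such a protein too but is not counted among the 11, which were taken by symbol. The unbound gene, mRpL22, had its nearest summit 3182 bp away. On the arms 41 of 50 were bound.

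Core cell machinery and chromatin genes were mostly bound too, beside 45.4% of all X coding genes. The members of these lists were chosen by name with earlier results of these data known, so the counts are a description only. Of 10 core genes 9 were bound, including eIF2alpha (translation initiation, 1452), Cdk7 (a kinase of TFIIH, 1309, in a peak shared with snf), sesB (mitochondrial ADP/ATP exchange, 684) and Pgd (pentose phosphate pathway, 302). Polr2A, the largest subunit of RNA polymerase II, and Act5C, an actin, were bound by weak peaks of 103 and 113. Zw, glucose-6-phosphate dehydrogenase, was not bound, with a summit 1113 bp away. Of 14 chromatin and cohesin genes 12 were bound, led by wapl and fs(1)h and followed by Top1 (topoisomerase, 942) and trr (a methyltransferase of histone H3 lysine 4, 666). The Polycomb duplicates ph-p and ph-d were not. The ph-p summit lay 511 bp from the start, just outside the window. Of 7 genes of chromosome segregation and repair 6 were bound, among them mus101 (a TopBP1 protein of DNA repair, 823), mei-218 (meiotic recombination, 688), CycD (cyclin D, 547) and Klp3A (a spindle kinesin, 486), and the kinesin Klp10A had a summit at 684 bp.

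The dosage compensation genes on X carried weak peaks. The roX1 peak had a signal of 125 and ranked 5340, that of roX2 163 (rank 4296) and that of mof 238 (rank 3167), all under the X median of 246. At roX1 the signals were 35.7 in replicate 3 and 91.3 in replicate 4. At roX2 they were 75.8 in replicate 3 and 83.1 in replicate 4, and at mof 147 in replicate 3 and 94.4 in replicate 4. The order of the replicates thus differed between roX1 and mof. The summits lay 131, 23 and 25 bp from the starts of roX1, roX2 and mof. The 101 bases at both roX summits are shown on the plus strand of Release 6. They hold neither a CGATA core nor the GAGA element GAGAG, on either strand, and the roX2 window holds a Motif 1 core, in capitals.
roX1 (chrX:3862516-3862616): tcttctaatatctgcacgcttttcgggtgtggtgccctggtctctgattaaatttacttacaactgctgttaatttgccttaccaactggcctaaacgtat
roX2 (chrX:11578992-11579092): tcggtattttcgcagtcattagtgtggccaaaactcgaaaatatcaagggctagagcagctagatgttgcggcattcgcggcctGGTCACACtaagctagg
The absence of CGATA and GAGAG concerns this window only. Over the X, 18.4% of windows reaching 100 bp to each side of X summits held GAGAG and 1.74% the longer repeat GAGAGAGA, against 19.97% and 1.33% on the arms. In flanking windows centred 500 bp away, 25.3% on X and 23.4% on the arms held GAGAG. Intervals of the 2 differences at the summits included 0.

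The lists for regulators of development and sex are small, and their shares are read against the 45.4% of all X coding genes that were bound. Of 8 genes of sex determination and X counting 3 were bound (37.5%, exact 95% interval 8.52 to 75.5, which includes that share), snf (a spliceosome protein that acts in Sxl splicing, 1309), Sxl itself (316) and otu (an ovarian deubiquitinase, 290). The X counting genes sisA, sc, run and upd1 were not bound, and ovo had its nearest summit at 1518 bp. The peak at Sxl had 140 in replicate 3 and 172 in replicate 4. Of 6 zygotic patterning genes 2 were bound, sog (an antagonist of Dpp, 122) and oc (a head homeobox gene, 104), both near the lower end of the optimal signals, which start at 99.8 on X. btd, gt and run were not. Of 5 genes of Wnt and Hedgehog transduction 4 were bound, fz4 (a Frizzled receptor, 1138), arm (beta-catenin, 591), dsh (281) and Wnt5 (118), while the kinase fu was not.

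The neural and eye lists had shares near the 45.4% of all X coding genes, at 44.4% for neurogenesis, 50% for nerve and synapse and 57.1% for eye pigment and vesicle sorting. Of 9 neurogenesis genes, 4 were bound, ewg (a factor related to NRF1, 1026), N (the Notch receptor, 275), elav (a neuronal RNA-binding protein, 271) and pcx (232). The elav peak had 55.4 in replicate 3 and 219 in replicate 4, a wide gap. The achaete-scute complex genes ac, sc, l(1)sc and ase were not bound, with the nearest summits 15820 to 90445 bp away. Of 12 nerve and synapse genes 6 were bound, led by eag (a potassium channel, 1664), Nrg (a cell adhesion molecule, 1583), rut (adenylyl cyclase, 1380) and norpA (phospholipase C, 1150). The ion channel genes cac, para and Sh had no summit within 500 bp. Of 7 eye pigment and vesicle sorting genes, 4 were bound with signals of 1094 to 1989. These were g and cm (subunits of the AP-3 adaptor), rb (a further AP-3 subunit) and dor (a subunit of vesicle tethering complexes). The white gene w (a pigment precursor transporter), v (tryptophan oxygenase) and car (a vesicle fusion protein) were not.

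Chemoreceptor, yolk, eggshell and P450 genes on X were almost without peaks, beside 45.4% of all X coding genes bound. None of the 25 X chemoreceptor genes was bound, which allows a share of up to 12%, and on the arms 2 of 108 were. None of the 11 yolk and eggshell genes was bound (up to 27.3%). None of 4 cuticle protein genes was bound either, but so few allow up to 75%, which includes the share of all X coding genes. On the arms 1 of 46 cuticle protein genes was bound. None of the 13 Stellate genes was bound. All but Ste12DOR are copies in a tandem array, and short reads from such copies cannot be told apart. Ste12DOR lies apart from the array and had its nearest summit 4100 bp away. The 15 symbols selected as cytochrome P450 included Cyp1, which encodes a cyclophilin and was the single one bound (681). Without it 0 of 14 were bound, which allows up to 21.4%. swa, a maternal gene that localises bicoid RNA, had its nearest summit at 802 bp and was not bound.

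Of 483 X genes annotated as ncRNA, a class that includes long noncoding RNAs and microRNAs, 70 (14.5%) had a summit within 500 bp, against 6.21% of 2190 on the arms. These 70 genes rest on 62 peaks, of which 42 also lie within 500 bp of a coding start, and those on the arms rest on 140 peaks, of which 102 do. The strongest, with 2434, lies 59 bp from the start of the coding gene CG3626 and 110 bp from that of the mir-303 microRNA. In all, 5 annotated ncRNA entries share it. Of 24 X tRNA genes 2 were bound (8.33%), against 4 of 168 on the arms (2.38%). One of them, tRNA:Phe-GAA-1-2, was counted through the peak of RpL17 (313). The other, tRNA:Gln-TTG-2-1, had a weak peak of 125, with 33.7 in replicate 3 and 91.3 in replicate 4. Of 31 X snoRNA genes 1 was bound (3.23%), snoRNA:Or-aca2, through the peak of RpS6, against 10 of 141 on the arms (7.09%). Where a coding and a noncoding start lie within 500 bp of the same summit, the peak cannot be assigned to either gene from its position.

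The motif content of X peaks was compared with the arms for 10 motifs, counted on both strands within 100 bp of the summit. DRE was in 17.3% of X peaks (219) and 14.1% of those on the arms, where 2L had 14.7%, 3L 12.8% and 3R 14.9%. The difference of 3.16 points had a 95% interval of 0.87 to 5.59, which widened to −0.08 to 6.68 once adjusted for the 10 motifs. Among promoter peaks alone the shares were 22.2% on X and 17.6% on the arms, 4.62 points apart (adjusted interval 0.48 to 9.10). In flanks 500 bp away DRE was in 0.71% on X and 0.65% on the arms, and over all windows of that length in 0.70% on X and 0.49% on the arms. X peaks with a DRE had a median signal of 547, against 214 for those without, and 94.1% of them were promoter peaks.

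Like DRE over all peaks, the other motifs showed no difference past the adjusted interval. The Motif 1 core was in 8.45% of peaks on X and 8.50% on the arms (0.48% and 0.42% of all windows), and the Motif 7 core CATCNCTA, a core promoter element, in 10.5% on X and 10.3% on the arms (1.34% and 1.28% of all windows). At X peaks with a Motif 7 core the median signal was 865, against 225 without it. Promoter peaks made up 86.5% of those with the core and 71.8% of those without. The E-box CAGCTG was in 11.6% on X and 14.4% on the arms (adjusted interval of the difference −5.69 to 0.32; 8.48% and 8.37% of all windows), and the TATA box TATAAA in 23.9% on X and 26.7% on the arms (−6.61 to 1.24; 20.4% and 22.1% of all windows). The repeat CACACACA, known to be common on the X, was in 3.87% of X summit windows and 3.08% of those on the arms. Flanks held it in 9.91% of cases on X and 5.27% on the arms, and all windows in 5.76% on X and 3.79% on the arms. The Zelda site CAGGTAG, bound by the activator of the zygotic genome, was in 0.95% on X and 0.82% on the arms (1.00% and 1.09% of all windows). GAGAG was in 21.4% of all windows on X and on the arms, and GAGAGAGA in 1.53% on X and 1.05% on the arms.

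**Figure D5:**
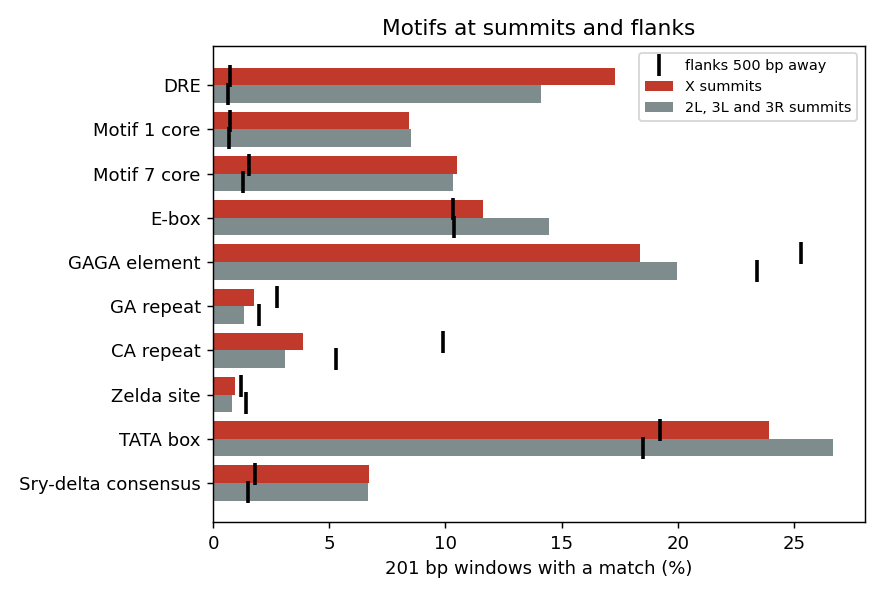
Percent of windows reaching 100 bp each side with a motif match at X summits and at summits on 2L, 3L and 3R (bars), with the share in flanks 500 bp away as black marks. DRE, the Motif 1 and Motif 7 cores and the Sry-delta consensus are far above their flanks, CA repeats are far below them on X, at 3.87% against 9.91%, and X and the arms lie close for each motif.

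The in vitro consensus of Sry-delta, allowed 2 mismatches, was in 6.71% of X peaks (85) and 6.66% of those on the arms, a difference of 0.04 points (adjusted interval −2.07 to 2.53). Flanks held it in 1.78% of cases on X and 1.47% on the arms, and all windows in 1.94% on X and 1.82% on the arms. It overlaps Motif 7, whose reverse complement TAGNGATG falls inside it. Of the 85 X peaks, 48 had a match that holds a Motif 7 core, while 84 X peaks had a Motif 7 core and no consensus match. X peaks with the consensus had a median signal of 762, against 234 for those without. Promoter peaks made up 83.5% of those with the consensus and 72.6% of those without. No X peak held the consensus without mismatch, and 14 (1.10%) held it with 1 mismatch, against 1.38% on the arms. These 14 ranged in signal from 339 to 3247, and the strongest of them was the intronic Pp2C1 peak. Matches from 7 of the 14 are shown 5′ to 3′ on the strand of the match, with the consensus positions in capitals and Release 6 coordinates.
Pp2C1 (chrX:4684762-4684786): aattacCTAGAGATGGGAGacccaa
hang (chrX:16422791-16422815): ttttggCTAGAGATGGGCAcgccgg
eag (chrX:14955389-14955413): gcgctgCTAGAGCTGGGAAaacatc
CG12659 (chrX:8591730-8591754): agaaatTTAGAGATGGCAActtatg
Sas10 (chrX:5317343-5317367): tagacgCTAGAGATGGCAAatgcgc
IntS6 (chrX:5745170-5745194): cgtcgcCTAGAGATGGCAAcgtgag
Grip (chrX:5965874-5965898): ctagagCTAGAGCTGGAAAaacatc
hang, a zinc finger protein of the response to ethanol, had a signal of 1966 in a peak shared with AnxB11, an annexin. CG12659 shared its peak of 951 with Crag. Sas10, a ribosome biogenesis factor, had 642, with the match 2 bp from the summit. IntS6, a subunit of Integrator, had 413 at a summit 1154 bp from its start, and Grip, a PDZ scaffold protein, had 339. These windows differ in the letters before the consensus. Grip and eag share the CTAGAGCTGG run and also the letters after the consensus. CG3638 (2221), among the 14 but not shown, holds that run too.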

How the data were processed

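The 2 ChIP-seq libraries were analysed from the peak lists that the authors deposited. Per the README files, all were called against a control alignment, and the lists for each replicate and for both pooled hold 30000 peaks apiece. The sources used here name no caller, aligner or IDR threshold. The 6318 optimal peaks are the 6318 of highest signal in the pooled list, so their signal value, a deposited score of the authors on 1 scale per list, is the pooled one. Replicate values are those of the overlapping (at least 1 bp) replicate peak with the nearest summit. Read totals were not analysed here, so depth is unknown and intervals reflect only the number of peaks or genes counted. No test over samples was possible with 1 group.

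Start sites came from Ensembl release 115, sequences from Release 6. Shares on X were compared with 2L, 3L and 3R by Newcombe intervals, adjusted (Bonferroni) over 5 location comparisons and over 10 motifs. Densities were compared by exact binomial tests with arm length or gene number as exposure. Exact (Clopper-Pearson) intervals are at 95%, and the limit for 0 bound is 3 counts. The letters of the Sry-delta consensus are not in the files and came from general knowledge. The 21 gene lists, named by nearest gene for the 15 strongest and 5 strongest distal peaks, all dosage genes, and up to 4 bound and 3 unbound members per list, were chosen with earlier results of these data known, as were the members. Other genes, named for a shared peak or position, were taken after their values were seen. Of the listed symbols 4 were matched by a synonym. Functions were tested on simulated data. Python 3.11.15, numpy 2.4.6, pandas 2.3.3 and scipy 1.17.1 were used. Alternatives comprised each replicate's own list, the top of the pooled list, the 3159 peaks of highest signal, 1 summit per region, 2R added, other windows and start sites, promoter peaks only and gene classes, the last added after seeing the data.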

Additional observations from a re-analysis of the deposited data

How the results depend on the processing

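Of 106 alternative values, 87 kept direction and side of the threshold. A further 14, from the top 6318 peaks of the pooled list, are the main values again, since those are the same peaks, and test nothing. X density, from 1.20 to 1.21 in the replicates alone, stayed above 1, lowest in the gene-rich bins (1.08, p = 0.016, exact binomial test). In build dm3 the X held 25.3% of the peaks of these 4 arms, against 25.2% in dm6. The excess of bound genes lost its interval among genes under 2 kb (2.96 points). The promoter share passed its adjusted interval with a 250 bp window (−4.01 points). The difference in top 25% share turned round among the 3159 peaks of highest signal (−4.53, interval −8.18 to −0.66) and at the top 10% (−2.02, −3.75 to −0.11), both excluding 0, and with 1 summit per region (−0.11, interval including 0), and with the replicates alone it ran from −0.12 to 0.17. DRE passed its adjusted interval in promoter peaks (4.62), and the E-box with 2R added (−3.33). Of the motif differences near 0, Motif 1 changed sign in those 3159 (2.15) and in promoter peaks (0.21), Motif 7 in those 3159 (−1.13) and with 2R added (−0.041), CA repeats in those 3159 (−0.24), and the Sry-delta consensus in those 3159 (−0.014), with 1 summit per region (−0.13), in promoter peaks (−0.0092) and with 50 bp each side (−0.64), all with intervals that included 0. With the replicates alone Motif 1 ran from −0.50 to 0.24 and Motif 7 from −0.12 to 0.27. The cause of these changes was not tested. No paired analysis was possible because the libraries form 1 group. Depth is unknown, and reads from tandem copies cannot be told apart.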

Other observations

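Base composition under the X summits differed from that on the arms. Windows reaching 100 bp to each side of the summit averaged 39.6% G and C on X (SD 6.51 across peaks), against 38.0% on 2L, 38.0% on 3L and 38.6% on 3R. In flanks centred 500 bp away the averages were 44.4% on X, 44.4% on 2L, 43.8% on 3L and 45.5% on 3R. Among all 7-mers, those with the largest excess on X over the arms in the 101 bp windows at summits were CTATCGA (17.0% on X, 13.8% on the arms), ATCGATA (23.8% on X, 20.7% on the arms) and ATCGATG (10.5% on X, 7.46% on the arms). The largest deficits were at A- and T-rich words such as AAAAATA, with 9.63% on X and 13.2% on the arms. These words were picked for their difference, which is therefore a description with no test. The part of base composition in the DRE and CGATA shares on X was not tested.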
